A study of Mus musculus with 14 samples.

Results

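Liver sinusoidal endothelial cells (LSECs) from aged and young mice were compared within the first of 2 sorting experiments, which supplied 6 of the 14 libraries of the series. The 6 libraries are those whose labels carry the replicate numbers 1.1, 1.2 and 1.3. Of these, 3 came from aged mice of 10 to 11 months and 3 from young mice of 8 to 10 weeks, and all 6 are female C57BL/6J wild type with no further allele or agent named. The cells were sorted from liver by flow cytometry as CD45-dim, STAB2-high and CD146-high. RNA was taken up in TRIzol LS with glycogen as carrier, and the Ion AmpliSeq mouse transcriptome kit amplified 1 short target per transcript. Whether each library comes from its own mouse is not stated, and the spread behind every p-value is that among libraries, which can be technical. Levels are given in CPM, the gene reads of a target scaled to library size after TMM, always in the order of replicates 1, 2 and 3. Amplicons differ in yield, so levels are compared between libraries and not between genes.

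LSECs line the hepatic capillaries as a fenestrated sheet without a continuous basement membrane, and clear waste molecules from blood through scavenger receptors. They release BMP6, which drives hepcidin production in hepatocytes and so limits iron entry, and they set sinusoidal tone through nitric oxide, prostacyclin and endothelin. Rodent ageing studies describe a loss of fenestrae and a gain of matrix beneath these cells. Isolation of endothelial cells by digestion and sorting is known to induce immediate early and heat shock genes, so these were listed beside the endothelial programmes.

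The 6 libraries held 10356891 to 13191701 gene reads, and 14034 to 15168 targets had at least 10 reads. Gene reads were fewer in all 3 aged than in all 3 young libraries (exact two-sided permutation p = 0.1, the smallest that 3 against 3 allows). The LSEC receptor genes Stab2 and Clec4g were abundant in every library. Stab2 stood at 1983, 2132 and 1804 CPM in aged and 1974, 2337 and 2097 CPM in young libraries, and Clec4g at 8309, 10077 and 7241 CPM in aged and 7891, 10560.3 and 9834 CPM in young libraries. Mcam, which encodes CD146, was lower in every aged library, at 328, 325 and 210 CPM against 514, 410 and 435 CPM in young libraries. Its log2 fold change was −0.65 (SE 0.207), and −0.47 without aged 1.3. Of 14 pan-endothelial genes 3 had every aged library below every young one and 1 above, when 10.0% and 7.97% of all targets did. Without young 1.1 it was 7 below, when 17.7% of all targets lay below. The hepatocyte gene Alb and the pan-leukocyte gene Ptprc (CD45) were also detected in every library, and 1 library stood apart for both.

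Aged 1.3 stood apart from the other 5 libraries. Its correlation of log2 levels with them across targets was 0.899 to 0.917, against 0.942 to 0.984 among the other libraries, and the first principal component, with 49.2% of the variance, set it alone at one end. It held 332 targets at least 4-fold above every other library, where the others held 0 to 3. Ptprc read 11.6, 6.95 and 87.1 CPM in aged and 5.74, 4.34 and 5.1 CPM in young libraries, and the T cell receptor subunit gene Cd3g read 1.89, 1.09 and 168 CPM in aged and 0.0755, 1.27 and 0.836 CPM in young libraries. Both were many times higher in aged 1.3 than in the other 2 aged libraries, and for Cd3g the ages overlapped. Alb stood at 349, 408 and 3417 CPM in aged and 593, 485 and 292 CPM in young libraries, so aged 1.1 and aged 1.2 lay within the young range and aged 1.3 far above it.

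The same split ran through whole marker lists. Summed over 21 hepatocyte genes, of which 19 were matched and tested, the level was 698, 857 and 10965 CPM in aged and 1467, 1135 and 634 CPM in young libraries. For T and NK cell genes it was 62.7, 52.6 and 1315 CPM against 48.7, 36.2 and 42 CPM, and for B and plasma cell genes 30.2, 19 and 479.8 CPM against 21.3, 11.8 and 14.6 CPM. Aged 1.3 was the highest library for each of these lists, while its LSEC identity sum, 44045, 49402 and 34279 CPM in aged against 40944, 56029 and 48232 CPM in young libraries, was the lowest of the 6. Fewer cells of a type and less RNA per cell cannot be told apart in such sorted bulk samples. Values below that move much with aged 1.3 are therefore given with and without it, and the part of these other cells in the results was not tested beyond that.

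**Figure D1:**
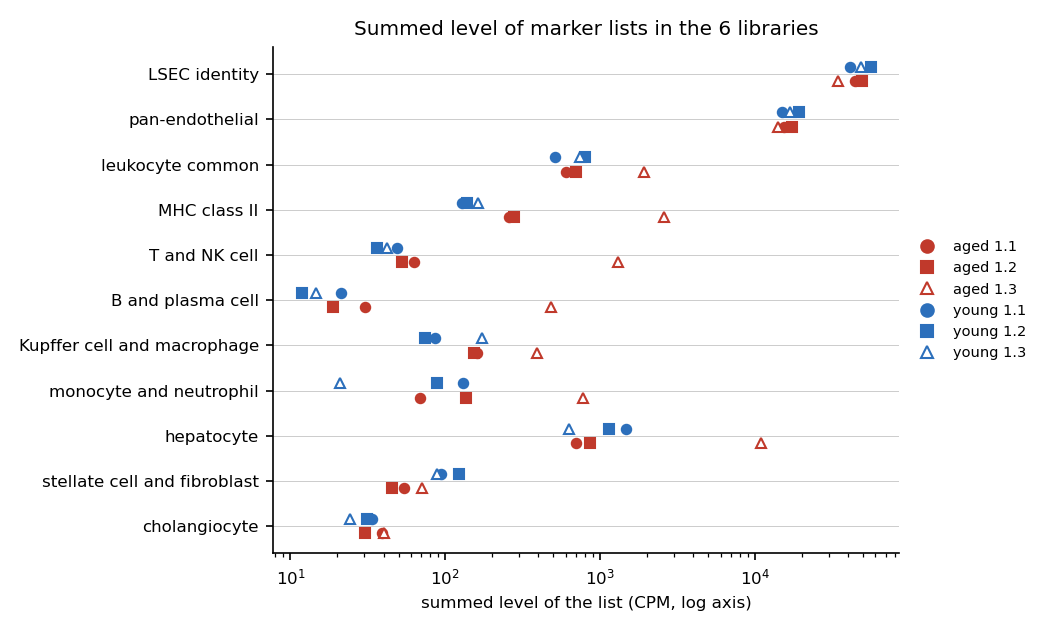
Summed level of each marker list in CPM on a log axis, 1 point per library, red for aged and blue for young. Aged 1.3 (open red triangle) lies highest for hepatocyte and leukocyte lists and lowest for LSEC identity, while aged 1.1 and aged 1.2 stay near the young libraries.

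The age comparison asked which LSEC transcripts differed between 10 to 11 months and 8 to 10 weeks of age. The clearest separation belonged to Col4a4 (NM_007735.2), which encodes a chain of basement membrane collagen IV. It stood at 17.3, 18.6 and 17.8 CPM in aged and 3.63, 3.71 and 3.43 CPM in young libraries, a 4.97-fold difference (log2 fold change 2.31, SE 0.246). The 3 aged libraries lay close together, far above 3 equally tight young libraries. Its adjusted p was 0.123 in edgeR's quasi-likelihood test, the lowest of 14485 targets, so that no target was called at an adjusted p under 0.05 in either direction (0% higher and 0% lower). Over the alternatives its adjusted p ran from 1.23e-13 to 0.544, and it passed with DESeq2, with no filter on low counts and without aged 1.3 (log2 fold change 2.32).

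At an unadjusted p under 0.05 there were 1274 targets, 581 higher and 693 lower in aged LSECs. Without TMM scaling this split became 877 higher and 465 lower, and the median log2 fold change of all targets went from 0.07 to 0.18, a shift of 0.11, so small differences have to be read against that median. DESeq2 called 45 targets higher and 89 lower, which is 0.311% and 0.614% of those tested, with 1373 at an unadjusted p under 0.05, and limma-voom called 0, with 1164. Without aged 1.3 edgeR called 3 higher (Col4a4, Ccbe1 and Zbtb16) and 4 lower (Lrch2, Rdx, Tiam1 and Rasd1). Leaving out any other library gave 0 calls. A plain count of separation is also used below: 1154 targets (7.97%) had every aged library above every young one, and 1454 (10.0%) had every aged library below. Those shares are the background for each gene list. Leaving out a library cannot lower such a count, so a larger count without one is read against the share of all targets in that setting. That share lay between 11.5% (without young 1.3) and 15.8% (without young 1.1) above, and between 11.3% (without aged 1.1) and 17.7% (without young 1.1) below. List counts of 0 or 1 given below reached at most 4 with any 1 library left out, which was the LSEC identity count below, without aged 1.2 or without young 1.1.

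The 15 highest-ranked genes in each direction, taken by smallest p among those without overlap and with a mean of at least 5 CPM, were all DESeq2 calls, and their values follow. Slco2b1, a carrier for organic anions, stood at 36.4, 46.1 and 45.7 CPM in aged and 4.76, 9.76 and 12.1 CPM in young libraries (log2 fold change 2.27, SE 0.34). The insulin receptor gene Insr stood at 174, 219 and 149 CPM in aged and 57.9, 91.8 and 72.5 CPM in young libraries (1.29, SE 0.217), and the polyamine transporter gene Atp13a3 at 61.7, 49.4 and 72 CPM in aged and 15.9, 26.8 and 22.8 CPM in young libraries (1.48, SE 0.242). In each of these genes the lowest aged library lay well above the highest young one. Sdc1, the heparan sulphate proteoglycan syndecan 1, read 14, 11 and 16.6 CPM in aged and 2.95, 5.06 and 4.1 CPM in young libraries, Igfbp5, which binds insulin-like growth factors, read 11.6, 10.7 and 10.7 CPM in aged and 3.85, 1.72 and 2.26 CPM in young libraries, and the matricellular gene Ccn2 read 830.3, 968 and 657 CPM in aged and 336, 505 and 304 CPM in young libraries. The lowest aged library stayed above the highest young one in all 3, by the least margin in Ccn2.

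Zbtb16, a zinc finger transcription factor also made by innate-like T cells, depended on aged 1.3 for its size. It read 5.11, 4.67 and 37 CPM in aged and 0.302, 0.0904 and 0.418 CPM in young libraries, so its log2 fold change of 5.78 (SE 1.04) became 4.11 without aged 1.3. Aged 1.1 and aged 1.2 lay close together and above all young libraries, which held only a few reads each. The remaining higher genes were Plscr1 (phospholipid scramblase 1), Gpr143, Epb41 (band 4.1) and the genes described with their groups below, with log2 fold changes from 0.93 for Epb41 to 2.94 for Stac2, an adaptor of calcium channels.

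The 15 genes lower in aged LSECs follow. Tiam1, an exchange factor for RAC1, stood at 74.4, 95.8 and 63.8 CPM in aged and 226, 192 and 196 CPM in young libraries (log2 fold change −1.39, SE 0.184). Rasd1, a RAS-like GTPase, read 111, 111 and 163 CPM in aged and 327, 311 and 295 CPM in young libraries (−1.28, SE 0.188), and Rflna, which binds filamin, read 5.19, 6.35 and 6.43 CPM in aged and 22.3, 19.1 and 25.8 CPM in young libraries (−1.90, SE 0.247). The highest aged library was below the lowest young library by a wide margin in each, also for Rasd1, where aged 1.3 lay nearest to the young group. Plcb1, a phospholipase C acting below G protein-coupled receptors, read 12.1, 13.7 and 12.2 CPM in aged and 34.2, 43.3 and 45.8 CPM in young libraries (−1.70, SE 0.208), and Rap2a, another RAS-like GTPase, read 43.8, 50.1 and 35.6 CPM in aged and 96.7, 74.5 and 77.9 CPM in young libraries. Gpc1, a glypican of the cell surface, read 50.8, 47 and 41.6 CPM in aged and 102, 118 and 95.6 CPM in young libraries.

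Further lower genes covered metabolism, innate sensing and matrix. Ldha, which makes lactate dehydrogenase A, stood at 279.6, 343 and 316 CPM in aged and 650.1, 539.9 and 516 CPM in young libraries. Sting1, the adaptor of cytosolic DNA sensing, stood at 122, 122 and 108 CPM in aged and 198, 206 and 195 CPM in young libraries (log2 fold change −0.77, SE 0.135), and its 3 young libraries differed from each other by little. The elastic fibre gene Emilin1 read 220.5, 231 and 227 CPM in aged and 379, 476 and 345 CPM in young libraries and the aggrecan-cleaving protease gene Adamts4 read 9.04, 13.9 and 7.22 CPM in aged and 33.3, 24 and 26.3 CPM in young libraries. Serpina3f (−1.003), Reep1 (−0.97) and Gm13889 (−0.81) had smaller fold changes, and Cxcl1 and Smtn are described with their lists. Serpina3f belongs to a family of near-identical copies, so its count is uncertain.

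**Figure D2:**
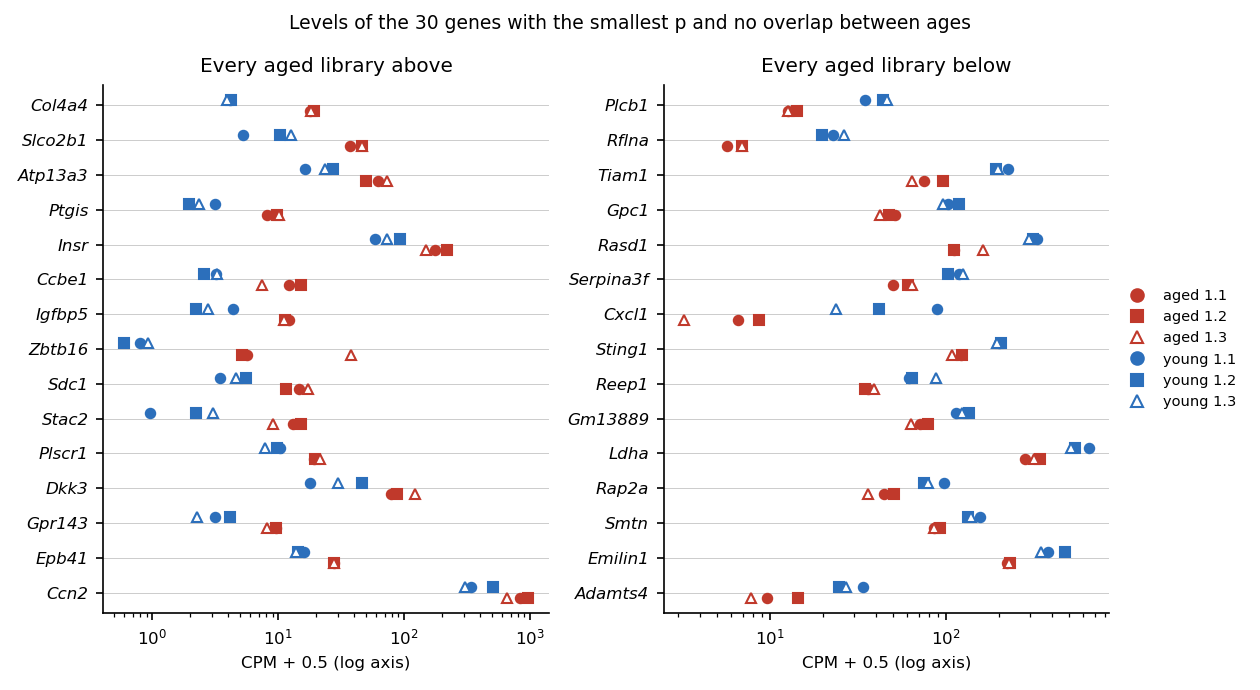
Level of each of the 30 genes in the 6 libraries, as CPM + 0.5 on a log axis, with genes higher in aged LSECs on the left and lower on the right. The selection required that ages do not overlap, and Zbtb16 shows the widest aged spread, through aged 1.3.

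The second experiment, with 4 libraries per age, was not used to rank these 30 genes, although earlier results of both experiments were known. The sign was the same for 14 of 15 higher and 14 of 15 lower genes. Over 10819 targets with a mean of at least 5 CPM, 54.0% had the same sign in both experiments. Among those without overlap, which include the 30 genes, it was 68.3% of 788 higher and 63.4% of 1330 lower targets. The median log2 fold change was 1.78 in the first and 0.85 in the second experiment for the higher genes, and −1.003 and −0.44 for the lower ones. Col4a4 (3.24, SE 0.285), Ptgis (3.26, SE 0.599), Stac2 (2.65, SE 0.554) and Ccbe1 (2.06, SE 0.459) had second-experiment log2 fold changes near or above those of the first. Igfbp5 went the other way (−1.88, SE 1.01), and Tiam1 (0.04, SE 0.286) and Atp13a3 (0.01, SE 0.409) stood near 0. In a fit of all 14 libraries, edgeR called 0 of 15184 targets (0%) for a difference between the age effects of both experiments, with 371 at an unadjusted p under 0.05, and DESeq2 and limma-voom also called 0, with 526 and 339 at that p.

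**Figure D3:**
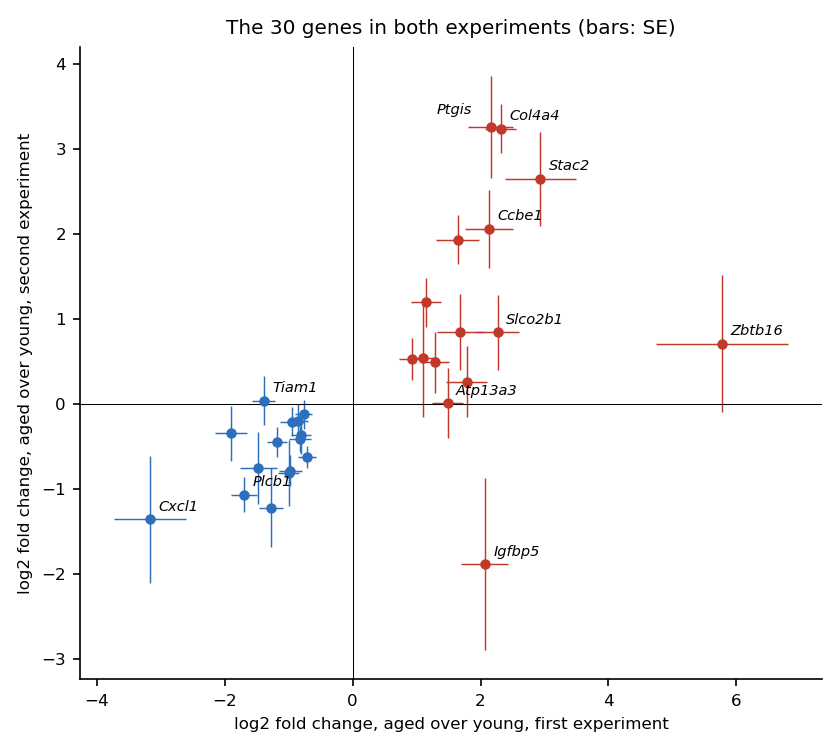
Log2 fold change, aged over young, of the 30 genes in the first experiment (x) and the second (y), with standard errors as bars, red for genes higher in aged LSECs and blue for lower. Most points share the sign on both axes, with Igfbp5 and Tiam1 as exceptions.

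Immediate early genes, transcription factors and feedback regulators switched on within minutes of a stimulus, had the largest share of members separated on the low side among the 46 lists with all 6 libraries, 63.2%. Without aged 1.3 it was 73.7%, when 14.9% of all targets lay below, and heat shock (77.8%) and unfolded protein genes (75%) stood above it. Every aged library lay below every young one for 12 of 19 tested members and above for 1, against backgrounds of 10.0% and 7.97%. The median log2 fold change of the list was −0.89, against 0.07 over all targets, and −0.87 without aged 1.3. None was called by edgeR, DESeq2 called 6 lower, and the median in the second experiment was −0.69. The summed level there overlapped between ages, from 3239 to 10830 CPM in aged and from 3148 to 26302 CPM in young libraries.

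Ier2, an early nuclear regulator, stood at 169, 186 and 165 CPM in aged and 372, 279 and 271 CPM in young libraries (log2 fold change −0.83, SE 0.17). Jun, an AP-1 subunit, stood at 2764, 3145 and 2242 CPM in aged and 6424, 5367 and 4357 CPM in young libraries (−0.99, SE 0.226), and Klf6, a Krüppel-like factor, at 89.1, 96.4 and 132 CPM in aged and 232, 208 and 149.7 CPM in young libraries (−0.89, SE 0.219). The young libraries spread more than the aged ones in these genes, and young 1.1 was the highest of all 6 each time. Atf3, a stress-induced repressor of the CREB family, showed this at its widest, with 30.4, 35.5 and 10.8 CPM in aged and 433, 134 and 73.7 CPM in young libraries (−3.06, SE 0.682). Maff, a small MAF protein named here for its promoter, read 3.85, 5.36 and 3.44 CPM in aged and 53.6, 10.5 and 9.36 CPM in young libraries, and Zfp36, which destabilises cytokine mRNAs, read 1266, 1619 and 1257 CPM in aged and 3724, 2684 and 1958 CPM in young libraries. Summed over the list the level was 8674, 9915 and 6303 CPM in aged and 25455, 15843 and 12105 CPM in young libraries, so young 1.1 was the highest and aged 1.3 the lowest library.

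Promoters of this list were searched for a pair of elements that are known to carry rapid induction, since many members lay below the young libraries together. The cyclic AMP response element, TGACGTCA, was present in 3 of 18 list genes with a promoter window, and in 1.79% of 32851 windows in the RefSeq table. The CArG box, bound by serum response factor, was found in 2 of 18, Zfp36 and Egr2 (the latter too low to test), and in 1.63% of windows. Windows ran from 250 bases before to 50 after a start, both strands were read, and no match of one element overlapped another. A list gene was counted if any of its windows matched, whereas the background counts windows, so both shares are not in the same unit. The list collects rapidly induced genes, so a high share of these elements follows from its making and says nothing about age. The matches with 24 bases on either side, cut at the start site, are printed 5′ to 3′ on the strand of the gene, with the element in capitals.
Maff: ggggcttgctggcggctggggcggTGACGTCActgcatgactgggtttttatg
Dusp1: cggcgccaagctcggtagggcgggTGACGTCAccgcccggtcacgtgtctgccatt
Btg2: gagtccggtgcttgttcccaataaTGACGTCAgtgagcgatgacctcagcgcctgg
Zfp36: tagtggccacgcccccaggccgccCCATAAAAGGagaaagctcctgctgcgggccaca
In build GRCm38.p6 they lie at chr15:79347467-79347519 on the plus strand, chr17:26508584-26508639 on the minus strand, chr1:134079290-134079345 on the minus strand and chr7:28379253-28379310 on the minus strand. Dusp1, a phosphatase that switches off p38 and JNK, read 623, 697 and 552 CPM in aged and 1071, 820.3 and 757 CPM in young libraries, and the antiproliferative gene Btg2 read 77.4, 78.7 and 94.5 CPM in aged and 117, 97.8 and 97.4 CPM in young libraries. Both had all aged libraries below all young ones, by a narrower margin than Maff and, for Btg2, by little.

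Heat shock genes, chaperones under the control of HSF1, followed the same pattern in 4 of 9 tested members, with a median log2 fold change of −0.57 (−0.65 without aged 1.3 and −0.55 in the second experiment). DESeq2 called these 4 and edgeR none. The summed level of the list in the second experiment overlapped between ages, from 1673 to 3107 CPM in aged and from 2177 to 4153 CPM in young libraries. Hspa1b stood at 56.8, 46.5 and 22.3 CPM in aged and 117, 147 and 84.9 CPM in young libraries (log2 fold change −1.48, SE 0.341) and Hspa1a at 104, 95.2 and 44.3 CPM in aged and 179, 206 and 161 CPM in young libraries (−1.17, SE 0.295), but these inducible HSP70 genes are near-identical copies, so their reads may be shared. Dnajb1, the HSP40 partner, read 84.8, 85 and 63.5 CPM in aged and 232, 125 and 121 CPM in young libraries, and Hsp90ab1, the constitutive HSP90, read 1019, 1179 and 1058 CPM in aged and 1703, 1506 and 1413 CPM in young libraries. Young libraries were higher throughout these 4, with aged 1.3 the lowest aged library in all but Hsp90ab1. Without aged 1.3 the count was 7 of 9, when 14.9% of all targets lay below.

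The unfolded protein and integrated stress list, which covers the chaperones, folding enzymes and transcription factors that answer misfolded protein in the endoplasmic reticulum, lay below in 11 of 20 members and above in 2. Without aged 1.3 the count below was 15, when 14.9% of all targets lay below. The list's median log2 fold change was −0.34, and −0.35 without aged 1.3. The count depended on scaling, and without TMM it was 5 of 20 (25%), when 6.86% of all targets lay below. Hspa5, the chaperone BiP, stood at 499.8, 564 and 284 CPM in aged and 1802, 799 and 857 CPM in young libraries (log2 fold change −1.36, SE 0.369), Creld2 at 29.5, 33.8 and 26.1 CPM in aged and 97.4, 49.4 and 50.7 CPM in young libraries (−1.15, SE 0.283) and the transcription factor gene Atf4 at 465, 499 and 413 CPM in aged and 795, 711 and 601 CPM in young libraries (−0.61, SE 0.17). Young 1.1 was the highest library for each, far above the next one for Hspa5, and DESeq2 called all 3. The secreted factor gene Manf read 286, 276 and 254 CPM in aged and 561, 321 and 431 CPM in young libraries. In the second experiment the list's median was 0.08, Hspa5 was at 0.06 and Creld2 at 0.38, and the unadjusted edgeR p of the difference between experiments was 0.0524 and 0.0426.

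The endoplasmic reticulum stress response element, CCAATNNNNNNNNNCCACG, is bound by ATF6 together with NF-Y. It was found in 6 of 20 list genes with a promoter window (30%) and in 39 of all 32851 windows (0.119%), both strands read. As before, the first share counts genes and the second windows. The list collects genes of the response that this element serves, so a high share follows from its making and says nothing about age. All 6 matches are shown because the element is rare among all windows, printed as before with the element in capitals.
Hspa5: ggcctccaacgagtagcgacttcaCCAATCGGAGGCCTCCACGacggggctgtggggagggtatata
Creld2: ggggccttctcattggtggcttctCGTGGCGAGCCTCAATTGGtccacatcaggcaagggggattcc
Pdia6: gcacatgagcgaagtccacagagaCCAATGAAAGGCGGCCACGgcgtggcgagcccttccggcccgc
Hsp90b1: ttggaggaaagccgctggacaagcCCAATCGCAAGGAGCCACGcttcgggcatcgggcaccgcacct
Dnajc3: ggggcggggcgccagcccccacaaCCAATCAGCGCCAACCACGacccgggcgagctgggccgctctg
Syvn1: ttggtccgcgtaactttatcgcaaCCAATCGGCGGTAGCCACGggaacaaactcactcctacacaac
They lie at chr2:34772001-34772067 on the plus strand, chr15:88819496-88819562 on the plus strand, chr12:17266467-17266533 on the plus strand, chr10:86705614-86705680 on the minus strand, chr14:118937803-118937869 on the plus strand and chr19:6046508-6046574 on the plus strand in GRCm38.p6, and in Creld2 the element runs on the opposite strand. Of these 6 genes, 5 had every aged library below every young one, against 11 of 20 (55%) in the whole list and 10.0% of all targets. So few genes cannot show a difference from the rest of the list. Pdia6, a disulphide isomerase, read 90.5, 93.9 and 44.8 CPM in aged and 149, 141 and 95.8 CPM in young libraries, and Hsp90b1, the chaperone GRP94, read 2287, 2473 and 2009 CPM in aged and 3146, 2484 and 2629 CPM in young libraries. Dnajc3, a co-chaperone, read 131, 154 and 154 CPM in aged and 155, 166 and 173 CPM in young libraries. The gap between the ages was almost nil in Dnajc3 and Hsp90b1 and small in Pdia6. Without TMM scaling the whole list had 5 of 20 below, and the count among these 6 genes was not taken in that setting. Syvn1, a ubiquitin ligase of the same pathway, overlapped at 145, 166 and 126 CPM in aged and 189, 119 and 139 CPM in young libraries. A match describes these letters only and shows no binding.

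Inflammatory genes gave 6 of 18 members below and 1 above, with a median log2 fold change of −0.41 (−0.35 without aged 1.3, −0.01 in the second experiment). Without TMM scaling 4 lay below, when 6.86% of all targets did. The neutrophil chemokine gene Cxcl1 stood at 6.05, 8.14 and 2.73 CPM in aged and 88.2, 40.8 and 23.2 CPM in young libraries (log2 fold change −3.17, SE 0.558), the interferon-inducible chemokine gene Cxcl10 at 181, 189 and 84.9 CPM in aged and 708, 340.3 and 396 CPM in young libraries (−1.67, SE 0.367) and the cytokine gene Il1a at 87.9, 96.4 and 47.2 CPM in aged and 299, 207 and 158 CPM in young libraries (−1.52, SE 0.314). Young 1.1 was again the highest library and aged 1.3 the lowest for all 3, and DESeq2 called them. Nfkbia, the NF-κB inhibitor that NF-κB itself induces, read 243, 269 and 238 CPM in aged and 359, 433 and 328 CPM in young libraries. Type I interferon response genes lay below in 7 of 30 and above in 1 (median −0.14), and without young 1.1 below in 14, when 17.7% of all targets did. Ifi44, a cytosolic interferon-induced protein, stood at 88, 91.6 and 42.7 CPM in aged and 153, 203 and 161 CPM in young libraries (−1.22, SE 0.283). The RNA sensor gene Ddx58 read 24.2, 28.3 and 18.5 CPM in aged and 41.9, 36.4 and 41.5 CPM in young libraries and Oas1a 22, 18.9 and 21.2 CPM in aged and 26.9, 33.2 and 31.4 CPM in young libraries, with the young libraries higher by a smaller factor than in Ifi44.

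**Figure D4:**
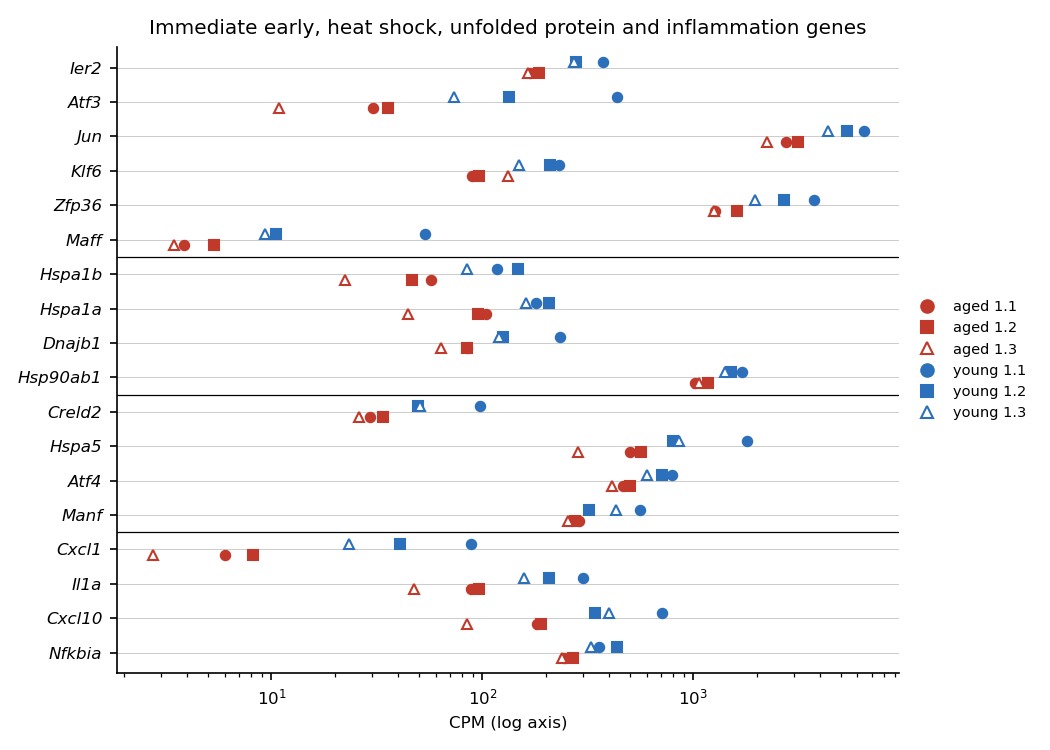
Level in CPM on a log axis of named immediate early, heat shock, unfolded protein and inflammation genes (blocks from top to bottom), 1 point per library. The rows were chosen by smallest p or for a promoter element and do not stand for the whole lists. In these rows blue young points lie to the right of red aged points, and young 1.1 (filled blue circle) is mostly the highest. In the whole lists, from top to bottom, 12 of 19, 4 of 9, 11 of 20 and 6 of 18 tested members lay below.

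Basement membrane genes were lower as well as higher. Collagen IV chains divided by type: Col4a4 was higher, as given above, while Col4a1, a chain of the widespread collagen IV network, stood at 726, 833 and 615 CPM in aged and 1063, 1054 and 1022 CPM in young libraries (log2 fold change −0.53, SE 0.169). Every aged library lay below every young one for Col4a1, and the second experiment gave −0.76. Col4a3, which pairs with Col4a4 in one collagen IV trimer, read 18.7, 21.5 and 5.29 CPM in aged and 5.06, 6.96 and 3.43 CPM in young libraries. Aged 1.1 and aged 1.2 were well above the young libraries, but aged 1.3 lay within them, so its log2 fold change was 1.56 (SE 0.518) with and 1.96 without aged 1.3. The laminin chain gene Lama5 read 40.9, 44.6 and 45.2 CPM in aged and 23, 30.2 and 35.8 CPM in young libraries. Over the list, 2 of 17 members lay above and 5 below, with a median of 0.09 that became −0.20 without aged 1.3. The count above was 4 without aged 1.2 or aged 1.3 and 5 without young 1.1, when 15%, 12% and 15.8% of all targets lay above.

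Of 23 other matrix genes 4 lay above and 5 below. The count above was 7 without aged 1.2 or young 1.1, when 15% and 15.8% of all targets lay above. That below was 8 without aged 1.3, when 14.9% of all targets lay below. Adamts1, a secreted protease, stood at 272, 267 and 191 CPM in aged and 1704, 753 and 498 CPM in young libraries (log2 fold change −2.02, SE 0.419), with young 1.1 far above the next library. Dcn, the small proteoglycan decorin, read 25.6, 18.4 and 30.7 CPM in aged and 45.9, 66.8 and 41.5 CPM in young libraries (−1.04, SE 0.261), and it is also a fibroblast marker. Summed stellate cell and fibroblast markers stood at 54.2, 45.2 and 70.3 CPM in aged and 94.3, 123 and 88.3 CPM in young libraries, every aged library below every young one. Of 9 tested markers 3 (Dcn, Colec11 and Reln) lay below and 0 above. Without aged 1.3 or without young 1.3 it was 5 below, when 14.9% and 13.9% of all targets lay below. The median log2 fold change of the markers was −1.04, −1.22 without aged 1.3 and 0.99 in the second experiment, and their part in the matrix values was not tested. Ccn2 and Emilin1, the other leading members, were given above.

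Bmp6, the gene in the title of the series, stood at 709.8, 804 and 583 CPM in aged and 369, 532 and 377 CPM in young libraries, 1.64-fold higher in aged LSECs (699 ± 111 against 426 ± 91.7 CPM, SD, n = 3 libraries per age). All 3 aged libraries exceeded all 3 young ones, and the lowest aged library, aged 1.3, was close to the highest young library. The log2 fold change was 0.71 (SE 0.205), with an adjusted p of 0.503 in edgeR, and 0.83 without aged 1.3. Of the BMP and SMAD list, 5 of 23 members lay above and 1 below (median 0.07). Without young 1.1 it was 8 above, when 15.8% of all targets lay above.

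Among BMP targets, Id2, an inhibitor of basic helix-loop-helix factors, read 97.5, 111 and 132 CPM in aged and 60.7, 79.4 and 62.4 CPM in young libraries (log2 fold change 0.75, SE 0.179), while Id1 overlapped between ages (0.22, SE 0.204, and 0.37 without aged 1.3). Smad6, an inhibitory SMAD, read 83, 83.4 and 75.2 CPM in aged and 66.9, 73.5 and 60.9 CPM in young libraries, and Smad7 194, 225 and 149 CPM in aged and 179, 179 and 145 CPM in young libraries, again overlapping. The pseudoreceptor gene Bambi stood at 30.2, 38.1 and 35.8 CPM in aged and 54.8, 78.2 and 49.6 CPM in young libraries (−0.81, SE 0.213), and the activin receptor gene Acvr2b at 30.1, 33.4 and 34 CPM in aged and 21.8, 18.2 and 22.6 CPM in young libraries (0.64, SE 0.194). Acvr2b and Id2 were higher and Bambi lower in every aged library. Bmp2, the other hepcidin-inducing BMP of LSECs, overlapped at 1785, 1911 and 1178 CPM in aged and 1370.1, 2390.5 and 1855 CPM in young libraries, and its sign turned in some alternatives.

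The factors placed upstream of Bmp6 by the title gave small differences. Ets1 stood at 754, 865 and 763 CPM in aged and 1197, 1113 and 992 CPM in young libraries, 1.39-fold lower in aged LSECs with no overlap (log2 fold change −0.47, SE 0.161, adjusted p 0.509), and Ets2 read 164, 189 and 200.3 CPM in aged and 301, 270.4 and 237 CPM in young libraries, in the same direction. Mapk14, which encodes p38 alpha, read 140.5, 158 and 174 CPM in aged and 132, 160.2 and 177 CPM in young libraries, with the groups interleaved (log2 fold change 0.01, SE 0.164, and −0.07 without aged 1.3). Dusp16, a phosphatase of JNK and p38, stood at 15.9, 18.3 and 14.5 CPM in aged and 29.5, 36.8 and 33.1 CPM in young libraries (−1.03, SE 0.206) and was called by DESeq2, although in the second experiment it was at 0.22. Of 17 tested p38 pathway genes 3 lay below and 0 above, and of 15 ETS genes 3 lay below and 1 above. The p38 count below was 5 without aged 1.2 or young 1.2 and 6 without young 1.1, and the ETS count below was 5 without aged 1.2 or aged 1.3. Of all targets 17.3% lay below without aged 1.2, 13.2% without young 1.2, 17.7% without young 1.1 and 14.9% without aged 1.3.

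NRF2, encoded by Nfe2l2, drives antioxidant genes when KEAP1 releases it. Nfe2l2 read 66.2, 57 and 65.9 CPM in aged and 46.2, 57.8 and 59.9 CPM in young libraries and Keap1 22.4, 26.9 and 33.5 CPM in aged and 16.5, 23.1 and 19.6 CPM in young libraries, and both overlapped between ages. Of 18 tested NRF2 targets 4 lay above and 0 below, against 7.97% and 10.0%, with a median log2 fold change of 0.33 (0.29 without aged 1.3). The count above was 9 without TMM scaling, 8 without aged 1.1 and 7 without aged 1.3, settings in which 12%, 12.9% and 12% of all targets lay above. Gstm1, a glutathione transferase of a family with near-identical copies, read 145, 163 and 178 CPM in aged and 99.4, 114 and 83.1 CPM in young libraries (0.71, SE 0.168), Ephx1, a microsomal epoxide hydrolase, 85.4, 101 and 127 CPM in aged and 18.4, 60.8 and 49.6 CPM in young libraries (1.28, SE 0.385), and G6pdx, the first enzyme of the pentose phosphate pathway, 19.7, 19.1 and 26.6 CPM in aged and 14.5, 14.1 and 13.5 CPM in young libraries. Young 1.1 was the lowest library for Ephx1, well under the next one. Hmox1, heme oxygenase 1, overlapped at 155, 149 and 119 CPM in aged and 83, 93.5 and 124 CPM in young libraries, as did Nqo1 at 21.5, 26.9 and 41.9 CPM in aged and 8.38, 15.2 and 24.9 CPM in young libraries. The iron exporter gene Slc40a1 read 342, 377 and 185 CPM in aged and 153, 273 and 265 CPM in young libraries, with aged 1.3 inside the young range, and Tfrc, the transferrin receptor, 0.865, 0.596 and 7.58 CPM in aged and 2.19, 0.904 and 1.42 CPM in young libraries, high in aged 1.3 (0.99, SE 0.895, −1.02 without it). Of 19 tested iron genes 0 lay above and 5 below, and 10 lay below without young 1.1, when 17.7% of all targets did. Without aged 1.3 there were 3 above, when 12% of all targets were.

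Regulators of sinusoidal tone mostly overlapped, with 2 of 15 KLF2 and nitric oxide genes above, 3 below and 1 of 8 prostanoid genes above. The KLF2 and nitric oxide count below was 6 without aged 1.3 or young 1.1 and 5 without young 1.2. In those settings 14.9%, 17.7% and 13.2% of all targets lay below. Without TMM scaling the list count was 2, when 6.86% of all targets lay below. Klf2, the flow-induced factor that keeps endothelium quiescent, stood at 1035, 1046 and 1015 CPM in aged and 1971, 1886 and 1348 CPM in young libraries (log2 fold change −0.75, SE 0.191) and was at −0.81 in the second experiment. Gucy1b1, a subunit of the nitric oxide receptor, read 1.65, 3.08 and 1.76 CPM in aged and 5.97, 7.32 and 7.69 CPM in young libraries (−1.69, SE 0.375). Edn1, the vasoconstrictor endothelin 1, read 14.1, 16.6 and 19.3 CPM in aged and 9.74, 6.87 and 5.69 CPM in young libraries (1.16, SE 0.289) and was at −2.57 in the second experiment, and the endothelin B receptor gene Ednrb 30.7, 33 and 54.5 CPM in aged and 7.48, 23 and 23.7 CPM in young libraries. DESeq2 called Klf2 and Gucy1b1 lower and Edn1 higher, with no overlap between ages for all 4. Ptgis, prostacyclin synthase, stood at 7.62, 9.33 and 9.69 CPM in aged and 2.64, 1.45 and 1.84 CPM in young libraries (2.16, SE 0.358). Every aged library lay well above every young one, and the log2 fold change was 2.09 without aged 1.3.

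Growth factor and cytoskeletal genes held a few large differences among many small ones. Ccbe1, which helps to activate VEGF-C, stood at 11.7, 14.7 and 6.96 CPM in aged and 2.72, 2.08 and 2.76 CPM in young libraries (log2 fold change 2.14, SE 0.373), the one member above among 15 VEGF and angiopoietin genes. Kdr, which encodes VEGFR2, read 1819.9, 2152 and 1381 CPM in aged and 2264, 2911 and 2210.5 CPM in young libraries, and the aged libraries lay below by a small factor. Smtn, smoothelin, stood at 84.8, 91.8 and 84.4 CPM in aged and 155, 133 and 138 CPM in young libraries (−0.71, SE 0.14), and Rdx, radixin, at 45, 51.7 and 113 CPM in aged and 124, 171 and 139 CPM in young libraries (−1.05, SE 0.335), where aged 1.3 was near the lowest young library and leaving it out gave −1.58. Nonmuscle myosin heavy chain Myh10 read 11.8, 7.64 and 5.9 CPM in aged and 28.3, 17.5 and 12.5 CPM in young libraries. Ezr, the radixin relative ezrin, was higher at 14.4, 18 and 45.5 CPM in aged and 12.8, 12.7 and 13.3 CPM in young libraries, mainly in aged 1.3, and its log2 fold change was 1.01 with and 0.32 without that library. In all, 5 of 20 actomyosin genes lay below and 1 above, and 10 lay below without aged 1.2, when 17.3% of all targets did.

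Markers of LSEC position and identity mostly overlapped. Among 19 identity genes 1 lay below and 0 above, with a median of −0.19 (−0.04 without aged 1.3). That 1 gene was Lyve1, a hyaluronan receptor, at 561, 711 and 352 CPM in aged and 1629, 914 and 1014 CPM in young libraries (log2 fold change −1.13, SE 0.308), a DESeq2 call with young 1.1 highest. Of the genes of LSECs near the central vein, Dkk3, a Dickkopf family glycoprotein, read 78.1, 87.5 and 122 CPM in aged and 17.3, 45.9 and 29.2 CPM in young libraries (1.64, SE 0.34) and Rab3b, a vesicle GTPase, 46.5, 61.7 and 52.6 CPM in aged and 80.7, 152 and 146 CPM in young libraries (−1.24, SE 0.251), so the leading members went in opposite directions. Rspo3, the central vein R-spondin, was high in aged 1.3 alone at 14.6, 19.9 and 141 CPM in aged and 9.82, 24.6 and 18.5 CPM in young libraries, and its log2 fold change was 1.73 with and −0.04 without that library. Lfng, which modifies Notch receptors, was likewise high there at 179, 218 and 476 CPM in aged and 85.7, 194 and 213 CPM in young libraries (0.82 with and 0.27 without it).

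Of 15 tested lipid uptake and transfer genes, 4 lay above and 2 below, with a median log2 fold change of −0.11 (−0.07 without aged 1.3). Pltp, phospholipid transfer protein, read 62.7, 60.9 and 135 CPM in aged and 30.6, 28.1 and 37.7 CPM in young libraries (1.42, SE 0.318), and the cholesterol exporter gene Abca1 53.9, 60.3 and 70.4 CPM in aged and 25.8, 42 and 32.4 CPM in young libraries (0.88, SE 0.216). Both were higher in all aged libraries, and Pltp was highest in aged 1.3 (0.94 without it). Lpl, lipoprotein lipase, read 1.73, 1.89 and 5.46 CPM in aged and 0.604, 0.181 and 1.5 CPM in young libraries, at a low level.

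DNA replication and division genes lay below in 5 of 22 members and above in 0, with a median log2 fold change of −0.31 (−0.51 without aged 1.3, when 11 lay below against 14.9% of all targets). Cdk1, the mitotic kinase, stood at 14.4, 15 and 12.1 CPM in aged and 26.7, 26.7 and 26.4 CPM in young libraries (log2 fold change −0.95, SE 0.205) and in the second experiment at −1.07. Tyms, thymidylate synthase, read 5.42, 6.06 and 4.58 CPM in aged and 10.5, 12.7 and 9.11 CPM in young libraries, Mcm2, a replicative helicase subunit, 17.6, 24.8 and 15 CPM in aged and 35.4, 36.4 and 28.5 CPM in young libraries, and Ccne2, cyclin E2, 1.1, 1.69 and 1.76 CPM in aged and 4.00, 4.25 and 3.26 CPM in young libraries. Young libraries were higher in all 4, and in Cdk1 they were almost equal to each other.

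Antigen presentation by MHC class II separated the ages in 9 of 14 members, all higher in aged libraries. Cd74, the invariant chain, stood at 104, 126 and 1067 CPM in aged and 44.7, 65.7 and 57.6 CPM in young libraries (log2 fold change 2.95, SE 0.836, 1.04 without aged 1.3), and H2-Ab1 at 7.23, 10.2 and 173 CPM in aged and 2.42, 4.16 and 4.1 CPM in young libraries (4.16, 1.29 without it). Aged 1.3 was far above the other aged libraries, which themselves lay above the young ones. The list's median was 3.00, and 0.88 without aged 1.3. Leukocyte genes ran beside it: 6 of 9 common leukocyte markers lay above, with a median of 3.50 and 0.82 without aged 1.3, and 4 of 12 Kupffer cell markers, with 1.32 and 0.59. Without young 1.3, 10 of 12 Kupffer cell markers lay above, when 11.5% of all targets did. The macrophage receptor gene Csf1r read 8.65, 9.03 and 23.7 CPM in aged and 3.17, 1.99 and 7.61 CPM in young libraries, so it was detected in every library, and no Kupffer cell marker was at 0 in all 6. Their part in the MHC class II values was not tested.

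**Figure D5:**
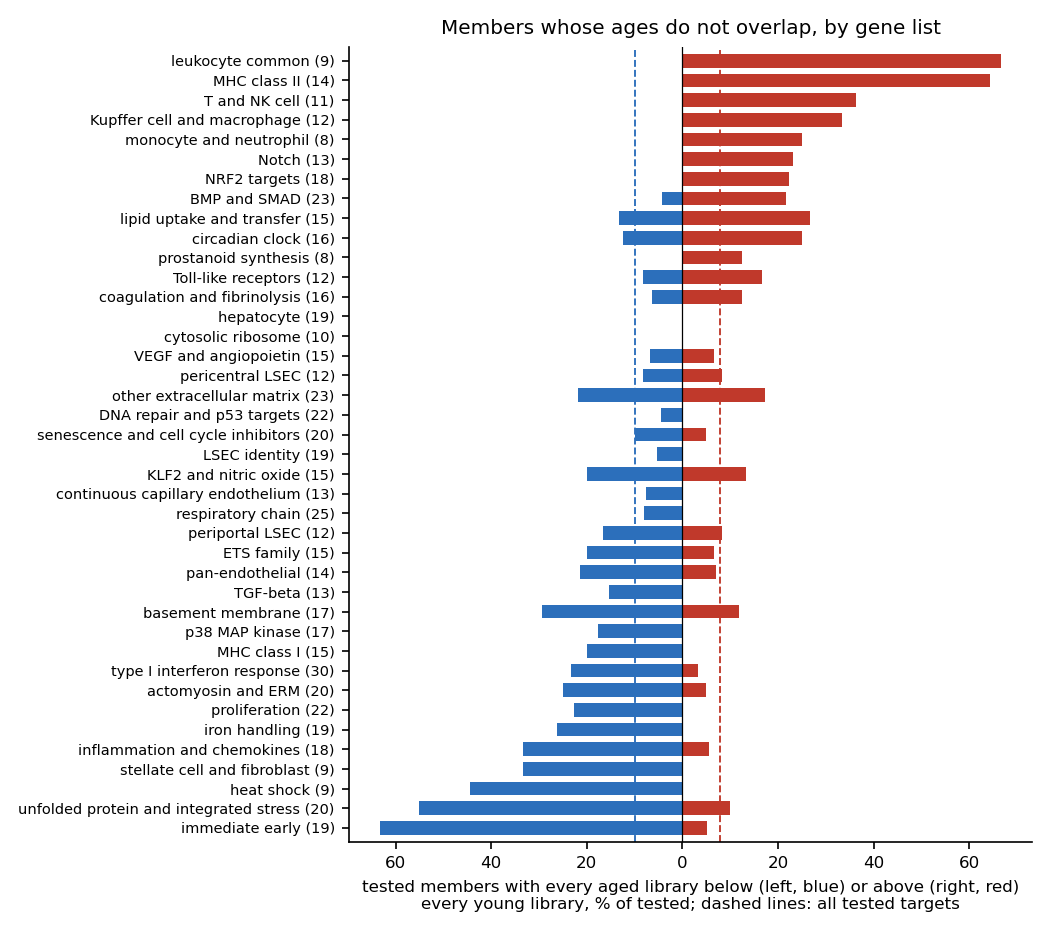
Share of tested members of each list with at least 8 tested (number in brackets) with every aged library below (left, blue) or above (right, red) every young one, in percent, with dashed lines at the share of all 14485 targets (10.0% and 7.97%). Immediate early, unfolded protein and heat shock lists extend farthest to the left, common leukocyte and MHC class II lists farthest to the right.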

How the data were processed

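Messenger RNA was measured in 6 libraries of sorted LSECs (3 aged, 3 young), with the 8 libraries of the second experiment as a further set. The deposited values are raw read counts per RefSeq transcript, made by the authors with tools that included HTSeq 0.6.0 and DESeq2 1.18.1, per the submitters' processing notes. What aligner, build and strand setting were used, and how shared reads were treated, is not given in the sources used here, so coordinates are printed only for RefSeq promoter windows. Of 23930 targets 18128 found a symbol by versioned accession in the RefSeq table of GRCm38.p6, 4324 by accession alone and 110 in GENCODE tables, and 1368 stayed unnamed but tested. The 5 bookkeeping entries held 2.06 to 3.04% of reads and were left out. Olfactory, vomeronasal and taste receptor targets, whose genes belong to sensory cells, held 1.21 to 3.22% of gene reads and did not differ detectably between ages (exact permutation p = 0.5). Amplicon reads carry no molecular identifiers, and reads do not count molecules.

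Counts were tested in R 4.3.3 with edgeR 4.0.16 (filterByExpr, TMM, quasi-likelihood F test, Benjamini-Hochberg adjusted p under 0.05), fitted to the 6 libraries alone. The standard error (SE) is the log2 fold change divided by the root of F. Log2 fold changes are aged over young. A fit of all 14 libraries with 4 means gave the second experiment and the difference between both. DESeq2 1.42.0 and limma-voom (limma 3.58.1) were alternatives, as were other scalings and filters, covariates for receptor and leukocyte levels, a replicate block, the sum of aged 1.1 and aged 1.2, and each library left out. Leaving libraries out of the counts of separated list members was chosen after seeing the data. Gene lists are described by counts and medians, with no set test. Named genes were the 15 per direction with the smallest p, no overlap and at least 5 CPM, the study's genes, up to 4 members per list by smallest p, up to 5 genes for the difference, 8 per age by range within the age, and marker or promoter genes named as such. The members and lists were chosen with earlier results of these data known. A gene that the rule names is not reported here. Steps were run on simulated counts with the same dispersion for every target and no library set apart. That checks the code and does not show how well the test performs on these libraries. Promoter sequences are from the RefSeq table of GRCm38.p6.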

Additional observations from a re-analysis of the deposited data

Results flagged for a closer look

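Of 121 genes examined, 9 had every aged library on one side of the young mean in the first experiment and on the other side in the second. Their difference was tested in the fit of all 14 libraries, edgeR called none of them (adjusted p = 0.9999 each), and DESeq2 and limma-voom called 0 targets. The log2 fold changes in the first and second experiment are given in this order. Stellate cell and fibroblast markers made up 4 of the 9: Dcn (−1.01 and 0.99, difference −2.00), Colec11 (−1.38 and 0.89, difference −2.28), Reln (−1.35 and 1.22, difference −2.57) and Rgs5 (−0.67 and 0.995, difference −1.67). As markers from the same list they are not 4 separate observations. The summed level of that list in the second experiment overlapped between ages, from 159 to 533 CPM in aged and from 71.4 to 291 CPM in young libraries. These genes lay lower in aged LSECs in the first experiment and higher in the second, with unadjusted p-values of the difference from 0.0175 to 0.0762 in edgeR. The vasoconstrictor gene Edn1 did the reverse, at 1.17 and −2.57 (difference 3.74, SE 1.28).

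The other 4 lay lower in aged LSECs in the first experiment and higher in the second: Naa50 (−0.41 and 0.18, difference −0.60), Sp3 (−0.60 and 0.08, difference −0.68), Crygn (−0.68 and 1.002, difference −1.68) and Bhlhe40 (−1.05 and 0.11, difference −1.16). Naa50 encodes an N-terminal acetyltransferase, Sp3 a zinc finger transcription factor and Bhlhe40 a clock repressor. Naa50, Sp3 and Crygn were chosen for a small p of this very difference, so their place among the 9 is no separate evidence.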

How the results depend on the processing

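Counts of calls moved with the method. edgeR called 0 higher and 0 lower with RLE scaling, with no scaling, with at least 1 CPM in 3 libraries, with receptor targets left out, with either covariate, with aged 1.1 and aged 1.2 summed, in the fit of 14 libraries and with limma-voom in its place. DESeq2 called 45 higher and 89 lower, and without a filter on low counts edgeR called 1 higher and 4 lower. Leaving out 1 library gave 0 to 3 higher and 0 to 4 lower, where the highest counts came without aged 1.3. The cause of these changes was not tested. The test of the difference between experiments gave 0 calls in every alternative run. Deviations of same-numbered libraries from the mean of their age correlated at 0.12, 0.19 and −0.17. Deviations of 3 libraries from their own mean depend on each other, so these values cannot tell whether replicate numbers pair the libraries. With the replicate number as a block edgeR called 0 higher and 0 lower, and 0 for the difference. At an unadjusted p under 0.05 the block fit of the age comparison gave 1634 targets, against 1274 in the main fit. Aged 1.1 and aged 1.2 were the most alike pair, but their counts differed by 6.97 times the sampling variance.

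All 30 genes named by smallest p kept their direction in 18 alternatives. They were chosen for ages that do not overlap, so leaving out a library could hardly turn their sign, and this is no separate evidence. The sign turned for Bmp2 with the receptor covariate (0.059) and without young 1.2 (0.00083), for Mapk14 with no filter (−0.0073), with the leukocyte covariate (−0.10), without aged 1.3 (−0.07) and without young 1.1 (−0.10), and for Tfrc with the leukocyte covariate (−0.91) and without aged 1.3 (−1.02). It also turned for Syvn1 with no scaling (0.064), with the leukocyte covariate (0.13), without aged 1.3 (0.07) and without young 1.1 (0.18), and for Rspo3 with the leukocyte covariate (−0.034) and without aged 1.3 (−0.037). With each library left out in turn the log2 fold change ran from −0.39 to 0.00083 for Bmp2, −0.10 to 0.10 for Mapk14, −1.02 to 1.46 for Tfrc, −0.18 to 0.18 for Syvn1 and −0.037 to 2.18 for Rspo3. Depth limits genes of a few CPM such as Lpl and Ccne2, and 3 libraries per age limit all.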

Other observations

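Clock genes separated the ages in 4 of 16 members above and 2 below. The count below was 4 without aged 1.3 and 1 without TMM scaling, when 14.9% and 6.86% of all targets lay below. Nr1d1, the repressor REV-ERB alpha, stood at 105, 105 and 99.4 CPM in aged and 16.1, 44.8 and 46.3 CPM in young libraries (log2 fold change 1.53, SE 0.35), and young 1.1 was the lowest library by a wide margin. Hlf, a PAR-type factor, read 2.83, 2.88 and 5.46 CPM in aged and 1.74, 0.723 and 0.752 CPM in young libraries, while Cry1 was lower at 4.09, 6.25 and 6.61 CPM in aged and 14.3, 8.14 and 10.6 CPM in young libraries and Bhlhe40 at 50.2, 42.2 and 67.5 CPM in aged and 186, 70.0 and 74.4 CPM in young libraries, with young 1.1 the highest. In the second experiment Nr1d1 was at 0.55, Cry1 at 0.12 and Bhlhe40 at 0.11. Notch genes lay above in 3 of 13 members and below in 0, with a median of 0.40 and 0.36 without aged 1.3. The count above was 6 without aged 1.3, when 12% of all targets lay above. It was 5 without aged 1.1, without young 1.3 or without TMM scaling, when 12.9%, 11.5% and 12% did. The receptor genes Notch2 and Notch3 and the ligand gene Jag1 were the members without overlap, with log2 fold changes of 0.79 (0.36 without aged 1.3), 0.67 and 0.52.

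The genes that varied most within an age followed single libraries. Within the aged group Cd7, a T cell surface gene, stood at 0.314, 0.894 and 122 CPM, the chemokine gene Ccl5 at 3.62, 6.55 and 349.8 CPM and the hepatocyte gene Lect2 at 0.314, 1.59 and 64.3 CPM, all high in aged 1.3. Ltf, Cd3g, Ms4a4b, Ngp and Ifi209 did the same. Within the young group Depp1, a FOXO target, stood at 257, 20.8 and 29.8 CPM and the endothelial tip cell gene Esm1 at 135, 7.14 and 9.45 CPM, both high in young 1.1. The neutrophil gene S100a9 read 42.6, 36.4 and 1.17 CPM and the resistin-like gene Retnlg 15, 15.8 and 0.251 CPM, both low in young 1.3, as was Spp1 at 7.25, 14.6 and 0.251 CPM.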
